A study of Homo sapiens with 2 samples.

Results

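The genes described here carry out or control the making, uptake, movement and storage of cholesterol, together with the fatty acid enzymes that share its regulators. They were chosen by name as a list of 37 genes, with earlier results of these data known though by no threshold on a value, and 34 of them could be read among the 18132 genes represented. The measured genes were 7 enzymes of the mevalonate steps, 9 enzymes that act on squalene and sterols, 6 regulators of the SREBP and LXR pathways, 6 genes of transport, storage and uptake, and 6 fatty acid enzymes. FDFT1 and NR1H2 were not analysed here, and neither was CYP51A1, because its 2 probe sets are annotated to LRRD1 as well. The study compared H1299 cells, a permanent lung cancer line of the non-small cell type grown from a lymph node metastasis, after transient lipid-based transfection with a pcDNA3.1 plasmid carrying EGR1 or with pcDNA3.1 without an insert. EGR1 is a zinc-finger transcription factor of the immediate-early class, and the study asked which genes it regulates in lung cancer cells. RNA was taken after 48 hours and read on 1 Affymetrix array per group. The share of cells that took up the plasmid is not given in the labels, and in a bulk sample a change in few cells and a smaller change in all cells cannot be told apart.

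Cells make cholesterol from acetyl-CoA through mevalonate, farnesyl diphosphate, squalene and lanosterol. When membrane sterol is low, the carrier SCAP escorts the transcription factors SREBP to the Golgi, where they are cut and released to switch on the synthesis enzymes and sterol uptake. INSIG proteins hold SCAP in the endoplasmic reticulum when sterol is plentiful, and the oxysterol-sensing LXR receptors then turn on genes that limit uptake and promote export. Many tumour cells run this program at a high rate to supply membrane for growth.

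With 1 array per group there was no replicate error and no test, and each value below describes these 2 arrays. The values are log2 levels, and a difference is the level in the EGR1 array minus that in the empty-vector array. Each gene is represented by its brightest probe set, the one with the highest mean of both arrays. All 34 measured genes lay past a floor of 5.22 on the mean of both arrays, which is the 40th percentile over the whole table, and 12652 genes did so in all. Of 6 EGR1 probe sets, the 2 dimmest by the mean of both arrays were higher in the EGR1 array (log2 differences of 3.73 and 2.76). They rose from 7.70 to 11.43 and from 7.17 to 9.92, and 11.43 was the highest level of the 6 in the EGR1 array. The 4 brightest by the mean were lower there (-0.39 to -0.20). By the brightest, EGR1 read 10.51 and 10.12, 1.31-fold lower in the array labelled EGR1, so the transfected gene went both ways by probe set. Where the probe sets lie relative to the plasmid's insert is not known here. Of 6 epithelial markers 4 lay past the floor. KRT8 (3.99-fold) and KRT18 (3.39-fold) were higher in the EGR1 array, KRT7 was 1.47-fold lower there and KRT19 1.18-fold higher, while EPCAM and CDH1 lay under the floor. All 3 mesenchymal markers (VIM, CDH2, FN1) lay past it. The floor is no detection call. The hepatocyte marker APOA1 read 6.21 and 6.13, so levels up to about that height say little about whether a gene is expressed. Lung epithelium markers reached 6.57. Whether this lung line expresses them was not tested, so levels from there down to those of APOA1 are uncertain as well. For these marker lists 4 of 6 lung epithelium, 1 of 3 measured leukocyte, 2 of 3 endothelium, 0 of 4 fibroblast and 2 of 3 hepatocyte genes lay past the floor, and their part in the results was not tested.

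The cholesterol genes differed little between the 2 arrays, as did most genes past the floor. None of the 34 differed by 1.5-fold or more in either direction. Across all genes past the floor 0.941% were at least 1.5-fold higher and 0.229% at least 1.5-fold lower, and at 2-fold the shares were 0.348% and 0.00790%. At the smaller threshold of 1.2-fold (0.26 on the log2 scale) 1 member was higher, against 7.07% of all genes, and 2 were lower, against 5.85% of all genes. The higher one was STARD4, a carrier of sterol between membranes, and the lower ones were the sterol enzymes HSD17B7 and SC5D. In all, 14 members lay above 0, 19 below and 1 at 0, with a median difference of -0.018 beside -0.016 over all genes past the floor. The median size of a member's difference, whatever its sign, was 0.099, beside 0.11 over all genes. The middle 95% of all genes ran from -0.35 to 0.40, and 33 of the 34 members lay inside it, HSD17B7 being the exception.

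**Figure D1:**
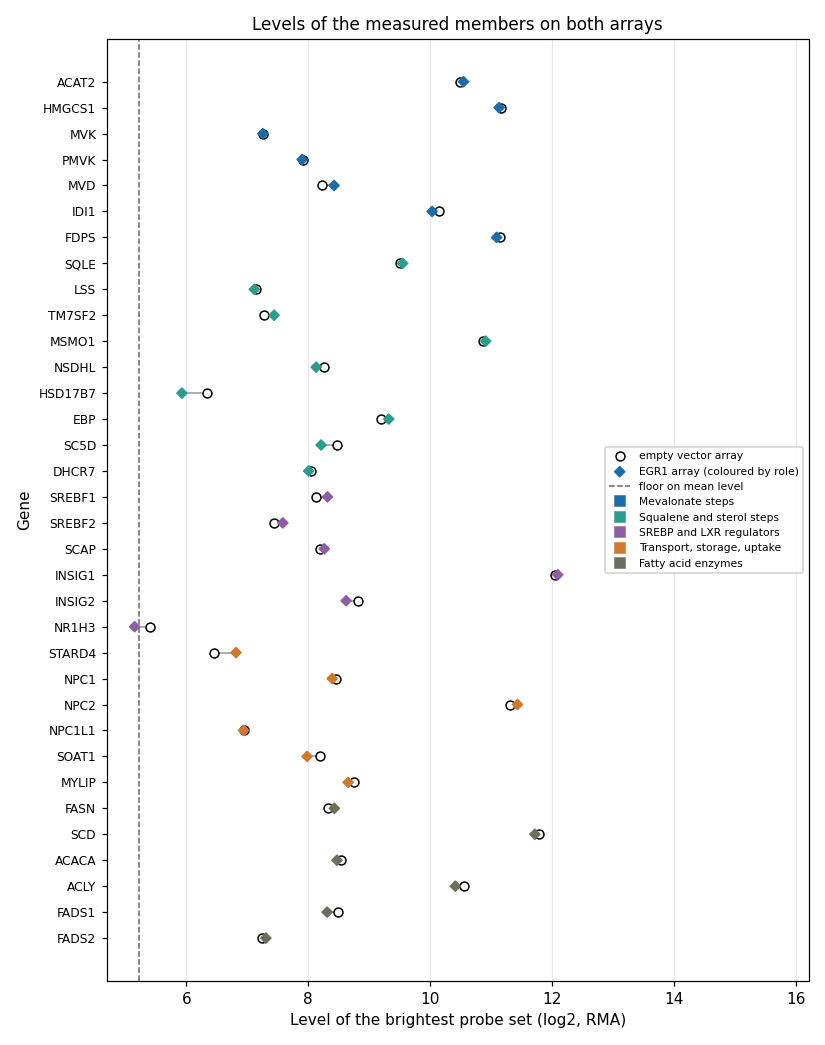
The plot shows the log2 level of the brightest probe set of each of the 34 measured genes, with an open circle for the empty-vector array and a diamond for the EGR1 array, coloured by role; the dashed line is the floor at 5.22. The 2 symbols nearly coincide for most genes and stand furthest apart for HSD17B7 (6.34 and 5.93) and STARD4 (6.46 and 6.81). Positions of different genes are not amounts of RNA relative to each other.

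The mevalonate enzymes turn acetyl-CoA into farnesyl diphosphate. None of the 7 reached 1.2-fold, and their median difference was -0.012. MVD, the decarboxylase that makes isopentenyl diphosphate, differed most. Here and below the first level is that of the empty-vector array and the second that of the EGR1 array. MVD read 8.22 and 8.42, 1.15-fold higher with EGR1, with only 1 probe set to judge by. IDI1, the isomerase that follows it, read 10.14 and 10.03, and both of its probe sets were lower in the EGR1 array (-0.17 and -0.11). The neighbouring steps therefore lay on opposite sides of 0.

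HMGCS1, which condenses acetyl-CoA units into HMG-CoA and is a widely used readout of SREBP activity, read 11.16 and 11.13, a difference of -0.033. Its other probe set gave -0.025. FDPS, which makes farnesyl diphosphate, read 11.15 and 11.09. ACAT2, the cytosolic thiolase at the entry of the pathway, read 10.48 and 10.54, and the phosphomevalonate kinase PMVK read 7.91 and 7.90. The mevalonate kinase MVK had the same value on both arrays to the last digit (7.25), as did 2613 of all 49395 probe sets. Apart from MVD and IDI1, these enzymes lay between -0.063 and 0.064. That is inside 0.15, the SD between a gene's own probe sets pooled over 7113 genes. This SD describes how far probe sets of a gene disagree, whatever the reason, and covers no error between cultures or arrays.

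The enzymes from squalene to cholesterol held both members that were 1.2-fold or more lower. Of 9 measured, 4 lay above 0 and 5 below, with a median of -0.025. HSD17B7, the ketosteroid reductase of the sterol demethylation complex, read 6.34 and 5.93, 1.33-fold lower in the EGR1 array. This difference ranked 161st from the lowest of 12652 genes. It rests on 1 probe set of the _x_at type, which can bind related transcripts, and HSD17B7 has closely similar pseudogene copies. Both levels also lie within the range of the lung epithelium markers, and 5.93 lies under the levels of the hepatocyte marker APOA1 (6.21 and 6.13). Without probe sets of the _x_at and _s_at types the gene could not be read, and at a floor on the 60th percentile (6.38) it was left out, since its mean level was 6.13.

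SC5D, the sterol desaturase that introduces a ring double bond late in the pathway, read 8.48 and 8.21 (-0.27, 1.202-fold lower, 722nd from the lowest). Its 4 probe sets gave 0, -0.18, -0.27 and -0.34, so 3 were lower and 1 was identical on both arrays. The brightest set is of the _s_at type, and the second brightest is the one at 0. SC5D was under 1.2-fold with the mean of its probe sets (-0.20), after lowess correction (-0.21) and after quantile normalization (-0.22). Its call at 1.2-fold therefore held in none of these settings.

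TM7SF2, a sterol reductase, was the sterol enzyme furthest above 0. It read 7.27 and 7.44, and all 5 of its probe sets were higher in the EGR1 array, from 0.023 to 0.29. All 5 are of the _s_at or _x_at types, so TM7SF2 could not be read without these types. Its dimmest sets read 5.93 and 6.11, and 5.67 and 5.80, under the levels of the hepatocyte marker APOA1 (6.21 and 6.13). EBP, the sterol isomerase, read 9.20 and 9.32, and both probe sets were higher (0.097 and 0.12). NSDHL, which removes a methyl group from the sterol ring together with HSD17B7, read 8.26 and 8.13 by its 1 probe set. The remaining enzymes differed by less. SQLE, the squalene epoxidase that limits the rate of this branch, read 9.51 and 9.55, although its dimmest probe set gave -0.20. LSS, which closes squalene epoxide into lanosterol, read 7.14 and 7.11, and its dimmest probe set gave 0.16. DHCR7, a last-step reductase, read 8.05 and 8.01. MSMO1, the methylsterol oxidase, read 10.86 and 10.91, and its other probe sets ran from -0.067 to 0.26, the last under the floor.

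Among the regulators none of 6 reached 1.2-fold, and the median was 0.064 with 4 above 0 and 2 below. SREBF1 and SREBF2 encode the SREBP transcription factors, of which SREBF1 is best known for fatty acid genes and SREBF2 for sterol genes. SREBF1 read 8.13 and 8.31 by its brightest probe set (0.18), but its other 2 probe sets gave -0.13 and -0.14. SREBF2 read 7.43 and 7.58 (0.15), and its others gave -0.14 and 0.043. For both genes the direction therefore depended on the probe set, and with the mean of all probe sets SREBF1 was at -0.030 and SREBF2 at 0.016.

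SCAP, the escort of SREBP, read 8.19 and 8.26, and its 2 probe sets lay at 0.034 and 0.076. INSIG1 is itself switched on by SREBP and so reports its activity. It read 12.04 and 12.09, and its 3 probe sets agreed closely at 0.052, 0.067 and 0.082. INSIG2, its relative with the same retention function, read 8.82 and 8.62 (-0.20), with -0.23 and 0.023 in the other 2. The INSIG genes thus lay on opposite sides of 0 by their brightest probe sets. NR1H3, which encodes the sterol receptor LXR alpha, read 5.41 and 5.15 (-0.26, 1.197-fold lower, 773rd from the lowest). It has 1 probe set, its level in the EGR1 array lay under the floor, and both levels lie under those of the hepatocyte marker APOA1 (6.21 and 6.13). NR1H3 passed 1.2-fold after lowess correction (-0.29) and quantile normalization (-0.28).

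In the group of transport, storage and uptake 2 genes lay above 0 and 4 below, with a median of -0.036. STARD4, which carries cholesterol between the plasma membrane, the endoplasmic reticulum and recycling compartments and is an SREBP target, was the highest of all members. It read 6.46 and 6.81, 1.28-fold higher in the EGR1 array and 435th from the highest of 12652 genes. All 5 of its probe sets were higher in the EGR1 array, at 0.13, 0.36, 0.52, 0.52 and 0.54 (mean 0.41, SD 0.17 between probe sets), the last of them under the floor. The smallest value, 0.13, came from the second brightest set, which also stood for the gene when _x_at and _s_at probe sets were left out, and STARD4 was then under 1.2-fold. Its brightest set is of the _x_at type, and of its levels 6.46 lies within and 6.81 above the range of the lung epithelium markers. The other sets read 5.59 and 5.73, 5.30 and 5.82, 5.19 and 5.71, and 2.88 and 3.41. All of these lie under the levels of the hepatocyte marker APOA1 (6.21 and 6.13). The 2 sets at 0.52 had the same difference to the last digit (0.5227), and whether they are separate measurements is not known here.

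SOAT1 esterifies cholesterol for storage in lipid droplets. It read 8.20 and 7.98 (-0.22), and its other probe sets gave -0.20 and -0.049, all lower in the EGR1 array. NPC2, the soluble lysosomal protein that hands sterol to NPC1, read 11.30 and 11.43. All 4 of its probe sets were higher (0.13 to 0.23), the one at 0.23 lying under the floor. NPC1, the membrane protein that exports sterol from lysosomes, read 8.46 and 8.39 (-0.069), with 0.35 in a probe set under the floor. The partners NPC1 and NPC2 thus lay on opposite sides of 0 by their brightest probe sets.

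MYLIP is an LXR-induced ubiquitin ligase that marks lipoprotein receptors for degradation. It read 8.75 and 8.65, and its 3 probe sets gave -0.092, -0.13 and -0.32, all lower in the EGR1 array. NPC1L1, the intestinal sterol uptake protein, read 6.94 on both arrays (-0.0025), and its other probe sets gave 0.082 and 0.18. Its level of 6.94 lies above the range of the lung epithelium markers and above both levels of STARD4's brightest set. Whether this lung line expresses NPC1L1 was not tested.

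The fatty acid enzymes, many of which answer to SREBP, had 2 members above 0 and 4 below, a median of -0.063 and none at 1.2-fold by the brightest probe set. FADS1, a desaturase of polyunsaturated fatty acids, read 8.48 and 8.31 (-0.17), and its other probe sets gave -0.15 and -0.35. FADS2, the desaturase encoded beside it, read 7.24 and 7.30 (0.066), and its other probe sets ran from 0 to 0.11, the one at 0 under the floor. The neighbouring desaturase genes therefore lay apart, with every FADS1 probe set below 0 and no FADS2 probe set below 0. ACLY, which makes cytosolic acetyl-CoA from citrate and so feeds both pathways, read 10.55 and 10.41, and both probe sets were lower (-0.14 and -0.20).

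SCD, the stearoyl-CoA desaturase, had the widest spread between probe sets of any member past the floor. Its brightest probe set read 11.78 and 11.71 (-0.063), but the second brightest read 8.52 and 9.07 (0.55), and the other 2 gave 0.22 and 0.19. The direction for SCD therefore depended on the probe set, and the mean over its 4 probe sets was 0.23 (SD 0.25). FASN, the fatty acid synthase, read 8.32 and 8.43 by its 1 probe set. ACACA, the carboxylase that commits acetyl-CoA to fatty acids, read 8.53 and 8.47.

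**Figure D2:**
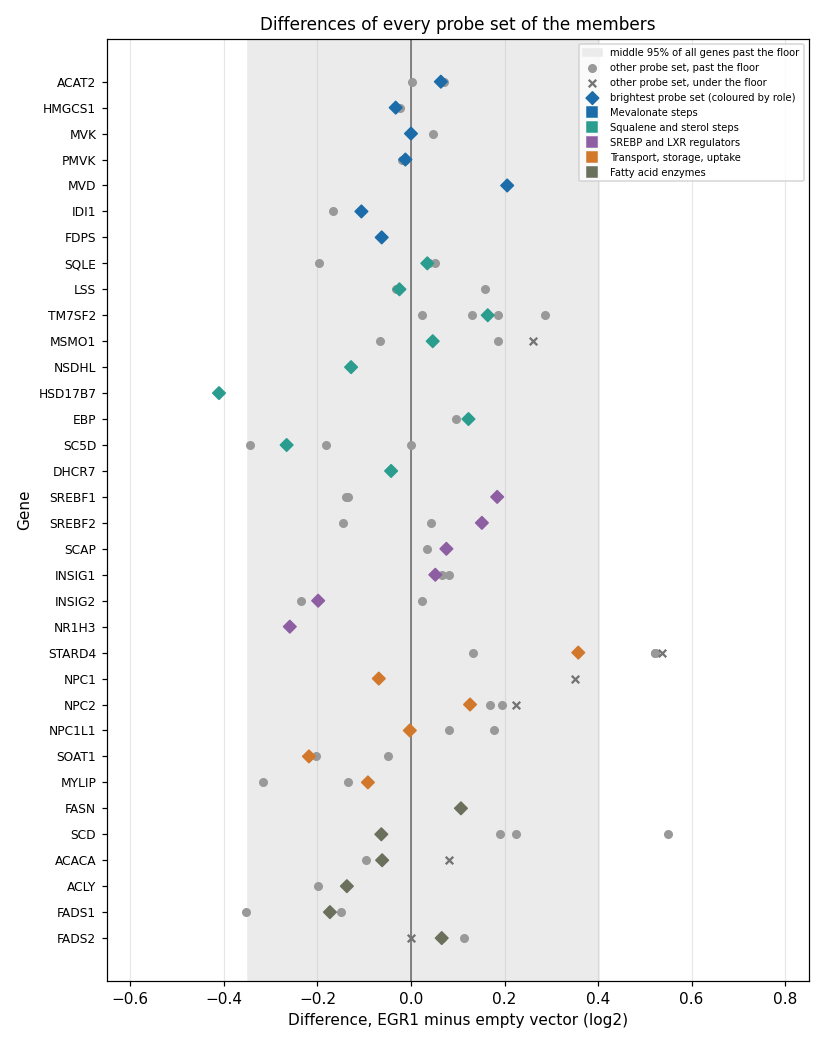
The plot shows the log2 difference (EGR1 minus empty vector) of each of the 92 probe sets of the 34 genes, with a coloured diamond for the brightest set, grey dots for the others past the floor and crosses for those under it; the shaded band is the middle 95% of all genes past the floor (-0.35 to 0.40). The STARD4 sets all lie above 0, the SCD sets spread from -0.063 to 0.55, and the SREBF1 and SREBF2 sets lie on both sides of 0.

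Several probe sets for one gene were the only repeat measurement in these data. Of 92 probe sets of the members 48 lay above 0, 41 below and 3 at 0. Of the 27 members read by 2 or more probe sets past the floor, 17 (63.0%) had all of them on one side of 0, beside 55.5% of the 7113 such genes in all. On the higher side these were ACAT2, TM7SF2, EBP, SCAP, INSIG1, STARD4, NPC2 and FADS2. On the lower side they were HMGCS1, PMVK, IDI1, FDPS, SOAT1, MYLIP, ACACA, ACLY and FADS1. These sides hold for the values as deposited. HMGCS1 turned to 0.0027 after lowess correction, and PMVK to 0.0366 after lowess correction and 0.0345 after quantile normalization. The rest of the 17 kept one sign in every setting that gave a value. Probe sets of a gene can share probes and always share the RNA sample, so their agreement covers neither cultures nor transfections. For PMVK 2 sets gave identical readings (7.9104 with the empty vector and 7.8983 with EGR1), and the FDPS sets were nearly identical. Whether such sets are separate measurements is not known here. By the brightest probe set 11 of 34 members differed by more than the pooled SD of 0.15, beside 37.5% of all genes past the floor.

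The synthesis, regulator and transport groups were then set side by side. The 16 synthesis enzymes had a median of -0.018, the regulators 0.064 and the transport genes -0.036. No test of the distances between these medians was possible. The order of the medians also turned with the processing. When probe sets were averaged per gene, the regulators' median was -0.0069 and that of the transport genes 0.11. Each group held genes on both sides of 0, and the regulators' median lay above that of all genes while their mean was 0.0010, since INSIG2 and NR1H3 lay well below 0.

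**Figure D3:**
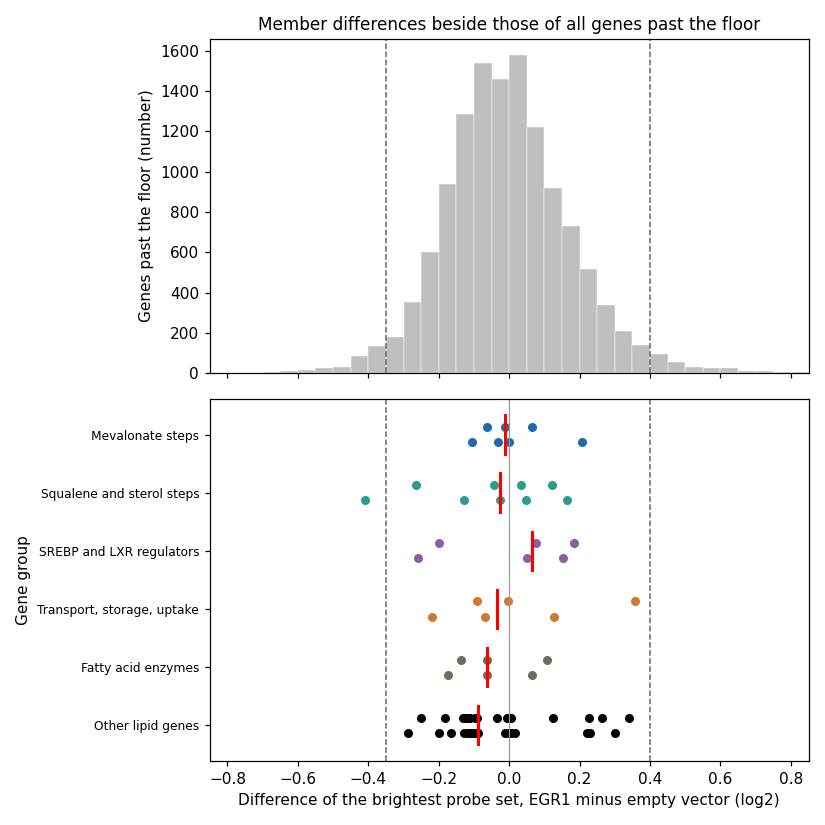
The upper plot is a histogram of the log2 difference of all 12652 genes past the floor, drawn from -0.85 to 0.85 so that the few genes beyond are not shown; the lower plot gives each measured gene of the 5 role groups and of a list of other lipid genes as a dot, offset vertically for legibility, with a red bar at the group median. Dashed lines mark the middle 95% of all genes past the floor, and the group medians lie between -0.089 (other lipid genes) and 0.064 (regulators).

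A further list of 35 lipid genes, none of them a member, was read beside the members. It holds SREBP-processing proteases, acyl-CoA synthetases, elongases, lipoprotein receptors and degradation factors, among others. Of 32 measured 11 lay above 0 and 20 below, beside 5647 above and 6674 below among the 12652 genes past the floor. Of the 32, 29 passed the floor, and the median was -0.089 over all measured and -0.091 past the floor. At 1.2-fold 2 of the 29 were higher, against 7.07% of all genes, and 1 was lower, against 5.85% of all genes. ACACB, the mitochondrial-surface acetyl-CoA carboxylase, read 5.94 and 6.24 (0.30). GPAM, the first enzyme of triglyceride synthesis, read 6.28 and 5.99 (-0.29). The levels of ACACB and GPAM lie within the range of the lung epithelium markers, which reached 6.57. STARD3, a late-endosome sterol carrier related to STARD4, read 7.20 and 7.47 (0.26), with all 5 probe sets above 0. Its brightest set is of the _x_at type. STARD3 was under 1.2-fold with the mean of its probe sets (0.16) and with the second brightest (0.091). It also read 0.091 without _x_at and _s_at sets. LPIN1, a phosphatidate phosphatase and SREBP target, read 9.22 and 8.97 (-0.25), with all 3 probe sets below 0, the dimmest under the floor. Other probe sets of ACACB and GPAM lay on the opposite side of 0, so only STARD3 and LPIN1 of these 4 kept one direction across their probe sets.

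Because EGR1 and SREBP each bind a short DNA element, the promoters of the members were searched for both. Windows from 250 bases before to 50 after each annotated start were taken from RefSeq (GRCh38.p14); 33 of the 37 genes had 47 windows, and ACAT2, FDFT1, SQLE and FASN had none. The EGR1 element was searched as GCGTGGGCG and, allowing any base at one place, as GCGNGGGCG, which includes the first. The sterol regulatory element was searched in its classic form and, more loosely, as TCACNCCAC, which leaves off its first letter, allows any base at one place and overlaps it. All were searched on both strands.

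The strict EGR1 element stood in the promoter of 1 member, LSS, on the given strand 143 bases before the start, beside 0.96% of all 27305 genes with a window. The classic sterol element stood in 1 member, SREBF2, 134 bases before the start, beside 0.0586% of all genes, and the looser form was found in SREBF2 alone among the members, beside 1.39% of all genes. The 250 bases before each start are shown for these genes because they carry the elements, with the strict EGR1 element in capitals in LSS and the looser sterol element in capitals in SREBF2. LSS lies on the minus strand (chr21:46228775-46229024) and SREBF2 on the plus strand (chr22:41832855-41833104).
LSS: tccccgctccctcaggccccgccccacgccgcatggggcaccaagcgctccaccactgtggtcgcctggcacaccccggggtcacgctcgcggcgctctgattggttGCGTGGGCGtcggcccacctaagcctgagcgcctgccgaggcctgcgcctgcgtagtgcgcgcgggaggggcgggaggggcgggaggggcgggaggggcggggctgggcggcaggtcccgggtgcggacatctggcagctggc
SREBF2: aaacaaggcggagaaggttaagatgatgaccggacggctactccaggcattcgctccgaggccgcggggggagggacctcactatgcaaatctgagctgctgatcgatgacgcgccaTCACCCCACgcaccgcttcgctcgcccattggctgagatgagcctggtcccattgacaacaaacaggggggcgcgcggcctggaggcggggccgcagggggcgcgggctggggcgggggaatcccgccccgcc

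The looser EGR1 element stood in 6 of 33 members (18.2%), beside 11.2% of all genes with a window. Member windows were richer in G and C than all windows (median 68.3% against 58.7%), and the part of base composition in this share was not tested. The matches besides LSS are shown with 10 bases on each side and the element in capitals, since they are the other places where EGR1 could be asked about. They lie at chr7:155297784-155297812 (plus strand) for INSIG1, chr10:100347213-100347241 (plus) for SCD, chr14:74493394-74493422 (minus) for NPC2, chr17:37359149-37359177 (minus) for ACACA and chrX:48521693-48521721 (plus) for EBP. In SCD the element is on the opposite strand and is printed as its reverse complement.
INSIG1: tgggcggtgcGCGCGGGCGgtgggtaggc
SCD: cacgcgggacCGCCCGCGCcagtcaactc
NPC2: cgggggcgggGCGCGGGCGggcctcagct
ACACA: caggggcgggGCGGGGGCGggtcaggccc
EBP: ggcgccacgcGCGGGGGCGgggctagagg

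Set beside the arrays, these 6 genes had no common direction by their brightest probe sets. NPC2 (0.13), EBP (0.12) and INSIG1 (0.052) were above 0, and LSS (-0.025), ACACA (-0.062) and SCD (-0.063) were below. With the mean of all probe sets, NPC2 (0.18), EBP (0.11), INSIG1 (0.067), LSS (0.033) and SCD (0.23) were above 0. ACACA (-0.026) stayed below. How these genes divided therefore depended on the probe set. None of the 4 searched elements was found in the windows of STARD4 and HSD17B7, the members with the largest differences. Their 250 bases before the start are shown for that reason, with STARD4 on the minus strand (chr5:111512536-111512785) and HSD17B7 on the plus strand (chr1:162790452-162790701). A match or its absence describes these letters in this window and says nothing about binding.
STARD4: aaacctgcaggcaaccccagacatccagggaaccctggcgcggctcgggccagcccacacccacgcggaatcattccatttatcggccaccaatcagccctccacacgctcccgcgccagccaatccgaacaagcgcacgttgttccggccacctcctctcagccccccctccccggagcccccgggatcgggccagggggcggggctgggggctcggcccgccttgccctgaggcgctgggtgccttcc
HSD17B7: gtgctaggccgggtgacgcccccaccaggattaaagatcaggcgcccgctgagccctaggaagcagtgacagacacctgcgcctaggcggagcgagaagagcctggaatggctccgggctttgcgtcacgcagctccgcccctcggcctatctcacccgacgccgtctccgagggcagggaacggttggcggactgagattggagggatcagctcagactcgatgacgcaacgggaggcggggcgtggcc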

How the data were processed

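RNA of 2 H1299 samples was labelled from 2 µg and hybridised to 1 array each, per the labels' protocols. The authors deposited log2 levels per probe set made with RMA, per the submitters' processing notes; the software, its settings and how many arrays RMA took in were not given in the sources used. Probe sets were named by the platform annotation, with symbols updated by Entrez ID through RefSeq (GRCh38.p14): 44988 had 1 gene symbol, 1832 several and 2473 none, and 102 were controls. The brightest probe set stood for a gene, ties going to the first identifier, and differences were taken as deposited. No test was possible, and the number of arrays limits the precision. Every member was described, those at 1.2-fold and at least the 2 with the largest difference past the floor in each group with their probe sets; of the other lipid genes, 4 were named. Members and lists were chosen with earlier results of these data known. Alternatives were the mean or second brightest probe set, no _x_at or _s_at sets, lowess (span 0.2) and quantile scaling, no floor and a floor at the 60th percentile. Computations in Python 3.11.15 (pandas 2.3.3, statsmodels 0.14.6) were tested on simulated data.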

Additional observations from a re-analysis of the deposited data

How the results depend on the processing

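No alternative brought a member to 1.5-fold. The median of all members ran from -0.018 to 0.013 over the settings, and that of each role group took both signs: mevalonate -0.018 to 0.030, sterol -0.025 to 0.074, regulators -0.0069 to 0.10, transport -0.036 to 0.11 (the latter with the mean of all probe sets) and fatty acid -0.097 to 0.023. Counts at 1.2-fold were small and moved. Members higher numbered 2 with the second brightest probe set (6.44% of all genes in that setting) and 0 without _x_at and _s_at sets (7.17%). Members lower numbered 1 with the mean of all probe sets (5.68%) and with the floor at the 60th percentile (5.58%), and 0 with the second brightest (9.42%) or without _x_at and _s_at sets (7.04%). Among sterol enzymes the lower count was 1 with the mean, lowess or quantile scaling (HSD17B7, without SC5D), 1 with the higher floor (SC5D, without HSD17B7) and 0 with the second brightest or without _x_at and _s_at sets, and 1 was higher (TM7SF2) with the second brightest. Among regulators 1 was lower (NR1H3) after lowess (4.79% of all genes) and quantile scaling (4.96%). Among fatty acid enzymes 1 was higher (SCD) with the second brightest set. Among transport genes 0 were higher with the second brightest or without _x_at and _s_at sets. Among other lipid genes 1 was higher without _x_at and _s_at sets (7.17% of all genes) and with the higher floor (5.5%). With the mean (5.45%) or second brightest set (6.44%) 0 were higher. Without _x_at and _s_at sets (7.04%) and with the higher floor (5.58%) 0 were lower. ACACB turned to -0.24 with the second brightest set, and GPAM to 0.041 with the second brightest and without _x_at and _s_at sets. Of 34 members 21 had one sign in every setting that gave a value. Beyond what the choice of probe set or floor itself sets, the cause was not tested. No paired analysis was possible because each group held 1 array.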
